A study of Homo sapiens with 2 samples.

Results

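The genes of small structured noncoding RNAs were examined in poly(A) RNA-seq libraries of doxorubicin-resistant SUM159 cells. Within this group RN45S carried most of the reads. The group holds every symbol of the count tables that begins with SNORA, SCARNA, RNU or RNY and a digit, or with VTRNA or RN7S, together with RMRP, RPPH1, RN45S and TERC. This rule matched 148 of 23368 gene symbols, of which 106 were H/ACA snoRNAs, 24 scaRNAs, 7 snRNAs, 4 vault RNAs and 2 Y RNAs, and no symbol beginning with RN7S was matched. The members were thus chosen by symbol, and the set of symbols was selected on the levels of these genes and on the ratio between the libraries, so both are given as a description without a test. RN45S goes against the name of the group, since the ribosomal RNA precursor is a long transcript. RNU86 is listed by RefSeq as an older symbol of SNORD139, a C/D box snoRNA gene, and was therefore kept apart from the snRNAs.

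SUM159 is a triple-negative breast cancer line, and the cells carried the genotype label Wt, grew as an attached monolayer and had become resistant through long-term treatment with rising doses of doxorubicin, a topoisomerase II poison, given in short exposures with recovery in medium without it. The 2 libraries are labelled as replicates 1 and 2 of this 1 condition, and nothing states that they came from separate cultures, so that the spread between them may be technical. Replicate 1 held 23044084 counts in genes and replicate 2 held 17985508, and treatment-naïve cells were not analysed here. The mesenchymal markers VIM, CDH2, ZEB1 and SPARC had mean values between 56.2 and 7542 counts per 1000000 counts of the library (CPM), whereas CD3E and HBB had no counts, the leukocyte gene PTPRC had 48 and 31 in replicates 1 and 2, and the endothelial gene PECAM1 had 24 and 20. CDH5 and HBA1 had 1 count each, in replicate 1. The hormone receptor gene ESR1 had 11 and 9 counts and PGR had 2 and 0.

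Most of these RNAs carry no poly(A) tail in their mature form. H/ACA snoRNAs guide pseudouridylation of ribosomal RNA, scaRNAs guide modification of spliceosomal snRNAs in Cajal bodies, and in human cells most of them are cut out of the introns of host genes. RMRP and RPPH1, the RNAs of the endonucleases RNase MRP and RNase P, are instead transcribed from promoters of their own by RNA polymerase III, and the ribosomal RNA precursor is made by RNA polymerase I. Selection of polyadenylated RNA depletes molecules without such a tail, and the counts do not tell reads of an intronic member apart from reads of the unspliced RNA of its host.

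The sequences of RMRP and of 4 of the 5 H/ACA snoRNAs of highest mean CPM are shown because these members carry the contrast described below. They were read 5′ to 3′ from GRCh37 for the 123 of 148 members that could be matched to a GENCODE locus. RPPH1, RN45S and RNU86 were not among them. In RMRP, at chr9:35657751-35658014 on the minus strand, the capitals mark its longest runs of A, of which there are 2 and which have 3 bases each.
RMRP: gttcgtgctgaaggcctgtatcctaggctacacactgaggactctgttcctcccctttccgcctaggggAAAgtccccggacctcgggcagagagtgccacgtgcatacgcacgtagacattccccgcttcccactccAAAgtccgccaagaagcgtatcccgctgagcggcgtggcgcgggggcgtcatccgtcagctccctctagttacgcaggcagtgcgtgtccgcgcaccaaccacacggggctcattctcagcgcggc
In the snoRNAs the capitals mark a candidate H box and the ACA box. The H box was searched on the RNA strand alone as ANANNA starting in the middle of 3 equal parts, taken nearest the centre. The ACA box was searched as ACA in the last 9 bases. SNORA70 lies at chrX:153628622-153628756 (plus strand), SNORA40 at chr11:93468277-93468402 (minus), SNORA33 at chr6:133138358-133138487 (plus) and SNORA10 at chr16:2012335-2012467 (minus).
SNORA70: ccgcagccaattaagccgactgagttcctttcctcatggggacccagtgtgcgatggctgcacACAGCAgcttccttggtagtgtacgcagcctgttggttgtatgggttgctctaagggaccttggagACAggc
SNORA40: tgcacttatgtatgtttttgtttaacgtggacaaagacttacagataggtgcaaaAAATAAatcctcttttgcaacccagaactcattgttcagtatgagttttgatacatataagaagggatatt
SNORA33: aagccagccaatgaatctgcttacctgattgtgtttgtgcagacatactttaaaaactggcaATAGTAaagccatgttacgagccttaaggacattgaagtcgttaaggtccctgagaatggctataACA
SNORA10: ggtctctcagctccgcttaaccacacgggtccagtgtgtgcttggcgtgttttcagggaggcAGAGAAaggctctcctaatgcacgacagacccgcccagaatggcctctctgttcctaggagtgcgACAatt
Of 92 H/ACA snoRNA genes with a sequence, 82 held the ACA letters in that window (89.1%) and 79 held both elements (85.9%), against 8 (3.90%) and 0 of 205 SNORD genes. The ANANNA pattern alone was in 88 of the 92 H/ACA genes but also in 129 of the 205 SNORD genes, so by itself it is weakly specific. SNORA40 had no ACA in its annotated last bases, and its capitals mark the ANANNA pattern alone. Among the 38 members with a sequence and at least 10 counts, the longest run of A was 2 to 7 bases, with a median of 3, the length of those in RMRP.

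RN45S, the ribosomal RNA precursor, was by far the most abundant member. It had 107216 counts in replicate 1 and 8164 in replicate 2, or 4653 and 454 CPM. It was the 7th most abundant of all symbols in replicate 1 and the 282nd in replicate 2. Relative to the library total the value of replicate 1 was 10.2 times that of replicate 2 (95% Clopper-Pearson interval 10.02 to 10.48, covering counting error only, since the reads have no molecular identifiers). RN45S made up 0.465% of the counts of replicate 1 and 0.0454% of those of replicate 2, which is 98.1% and 91.9% of all counts of the group. Ribosomal DNA exists in many near-identical copies, so its reads match several places, and how such reads were counted was not stated.

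RMRP and RPPH1 were the next most abundant members in replicate 1, and both were near 1 CPM in replicate 2. RMRP, whose complex cleaves the ribosomal RNA precursor, had 450 counts in replicate 1 and 21 in replicate 2, or 19.5 and 1.17 CPM, a ratio of 16.7 (10.8 to 27.3). RPPH1, the catalytic RNA that trims the 5′ leader of precursor tRNAs, had 325 and 14 counts, or 14.1 and 0.778 CPM, a ratio of 18.1 (10.6 to 33.5). The intervals of both lie above 10. Over all 13744 symbols with at least 10 counts over both libraries, RPPH1, RMRP and RN45S had the 2nd, the 3rd and the 7th largest ratio, and among the 12340 symbols with a mean count of at least 20 they were 1st, 2nd and 4th. RMRP and RPPH1 have proteins in common, and these did not stand apart in the same way. Of 10 protein genes of RNase P and MRP, 9 were counted at 20 or more on average, and their ratios had a median of 0.29 on the log2 scale. The highest was POP7 with 43.0 ± 9.71 CPM (SD, n = 2), and RPP25 was the lowest of those with counts with 6.03 and 3.11 CPM in replicates 1 and 2. RPP21 had no counts in either library.

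**Figure D1:**
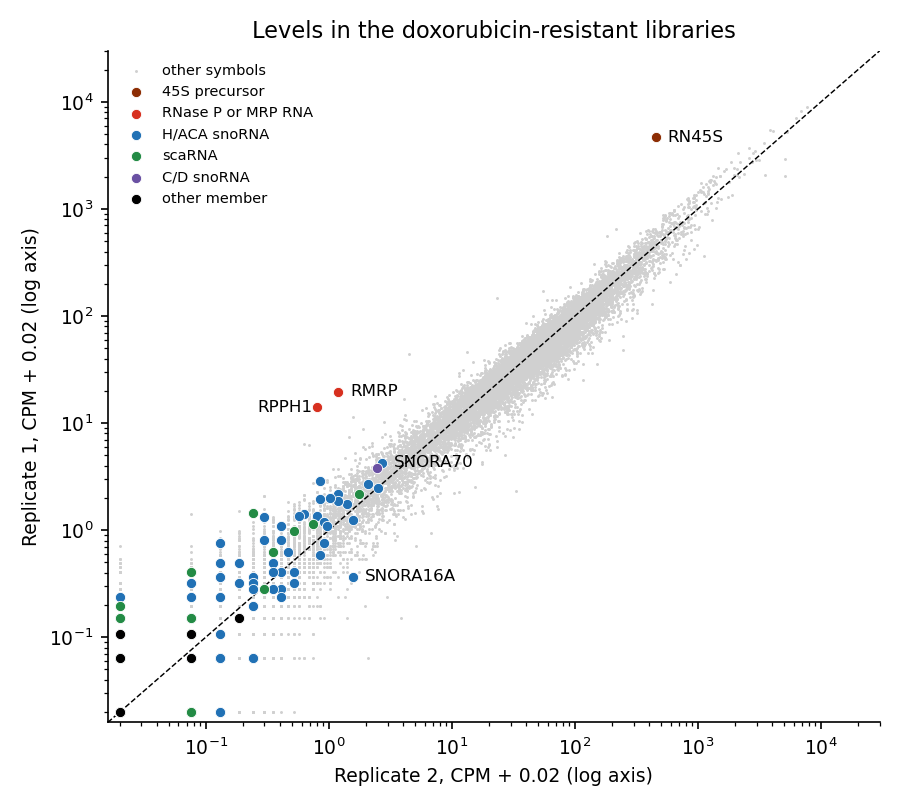
CPM plus 0.02 in replicate 1 (vertical, log axis) against replicate 2 (horizontal, log axis) of the doxorubicin-resistant cells, with members coloured by RNA class, other symbols in grey and equal values on the dashed line. RN45S at 4653 and 454 CPM, RMRP at 19.5 and 1.17 CPM and RPPH1 at 14.1 and 0.778 CPM lie above the line, and SNORA16A at 0.347 and 1.56 CPM lies below it.

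Without RN45S, RMRP and RPPH1 the remaining 145 members held 1302 counts in replicate 1 and 680 in replicate 2. This is a summed level of 56.5 and 37.8 CPM, with a ratio of 1.49, against 4743 and 494 CPM and a ratio of 9.61 for the whole group. The 106 H/ACA snoRNA genes together reached 44.7 and 31.0 CPM in replicates 1 and 2, and the 24 scaRNA genes had 7.59 and 4.11 CPM. The sum over the group therefore followed RN45S, which differed far more between the libraries than the snoRNAs did.

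Few members were detected well. Of 148 members 72 had counts in both libraries (48.6%), against 64.8% of all symbols. In neither library had 49 members counts, against 6576 of all 23368 symbols. At 20 counts on average or more there were 20 members (13.5%), against 52.8% of all symbols. Other short classes were detected less often, with counts in both libraries for 36.6% of SNORD genes, 6.21% of MIR genes and 10.1% of other symbols of at most 500 nt. At 20 counts on average or more these shares were 7.63%, 1.29% and 2.23%. In bulk RNA, fewer cells with a given RNA and less of it in each cell cannot be told apart. SCARNA17 with a mean count of 19.5 and SCARNA2 with 18.5 were just below this minimum, and SNORA8 with 20.5 and SNORA4 with 21 just above it. Where a library had no counts of a member, a level of up to 3 counts remains possible, which is 0.130 CPM for replicate 1 and 0.167 CPM for replicate 2.

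SNORA70 was the most abundant H/ACA snoRNA. It lies in an intron of the ribosomal protein gene RPL10 and had 98 counts in replicate 1 and 48 in replicate 2, or 4.25 and 2.67 CPM, with a ratio of 1.59 (1.12 to 2.30). RNU86 had 88 and 44 counts and a similar ratio of 1.56 (1.07 to 2.30). SNORA18 and SNORA40 were close in both libraries, SNORA18 with 57 and 45 counts and SNORA40 with 62 and 37. SNORA33, in an intron of RPS12, differed more, with 66 counts in replicate 1 and 15 in replicate 2 and a ratio of 3.43 (1.94 to 6.48). SNORA10, in an intron of RPS2, had 50 and 21 counts and a ratio of 1.86 (1.10 to 3.26). Set per kilobase of the RefSeq length, the mean levels of the members named here were highest for RNU86 with 57.0 ± 17.6, RMRP with 38.3 ± 48.1, SNORA70 with 25.6 ± 8.30 and RPPH1 with 21.8 ± 27.6 CPM per kb (SD, n = 2). The spread between the libraries exceeds the mean for RMRP and RPPH1, so their place in this order rests on which library is taken. If a read was counted wherever it touched a gene, reads of 100 bases, the length the methods state, raise the value per kb of genes as short as these.

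Among the scaRNAs SCARNA12, in an intron of the prohibitin gene PHB2, was the most abundant. It had 50 counts in replicate 1 and 31 in replicate 2, or 2.17 and 1.72 CPM. SCARNA17 had 26 and 13 counts, SCARNA9 had 22 and 9, and SCARNA16 had 14 and 6. SCARNA2 differed more, with 33 counts in replicate 1 and 4 in replicate 2, a ratio of 6.44 (2.29 to 25.0). In human cells SCARNA2 is a gene with a promoter of its own and not an intronic snoRNA. Over the 7 scaRNAs with at least 10 counts the median log2 ratio was 0.86. Of these 7, 6 were higher in replicate 1, against 7055 of all 13744 symbols with as many counts, and only the interval of SCARNA2 excludes 1. The intervals cover counting error only. As the group was proposed on this ratio, nothing is read from these numbers.

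The members with independent promoters other than those named were at or near 0. Of the 7 snRNA genes, RNU11 of the minor spliceosome had 2 counts in replicate 1 and 1 in replicate 2, RNU4ATAC had 2 and 0, RNU6ATAC had 1 in each, and RNU12, RNU5D-1, RNU5E-1 and RNU5F-1 had none. TERC, the template RNA of telomerase, had 1 count in replicate 1 and none in replicate 2, whereas TERT, its protein partner, had 39 and 25 counts, and WRAP53, which takes telomerase to Cajal bodies, had 16.9 ± 2.78 CPM (SD, n = 2). The Y RNA genes RNY4 and RNY5, whose RNAs bind the Ro protein, had no counts. Of the vault RNAs, VTRNA1-3 had 3 counts in each library, and VTRNA1-1, VTRNA1-2 and VTRNA2-1 had none, although MVP, the gene of the major vault protein, had 337 ± 78.0 CPM and TEP1, the lowest of 3 vault protein genes, 50.9 ± 9.59 CPM (SD, n = 2). At so few counts no difference between the libraries was detectable for these members.

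Across the 52 members with at least 10 counts, 18 had a ratio over 2, higher in replicate 1, and 1 had a ratio under 0.5, higher in replicate 2. Of all symbols with as many counts, 3.33% were over 2-fold higher in replicate 1 and 4.34% over 2-fold higher in replicate 2. Because the ratio is what the group was proposed on, nothing is read from this difference. The median log2 ratio of the members was 0.66, against 0.01 over all symbols. At the limit of 2-fold, SNORA57 with 1.99 and SCARNA9 with 1.91 were just inside, and SNORA41 with 2.01 and SNORA52 with 2.27 just outside.

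After RPPH1, RMRP and RN45S the largest ratios were those of SCARNA7 and SNORA45, which rest on few counts. SCARNA7 had 9 counts in replicate 1 and 1 in replicate 2, a ratio of 7.02 (0.973 to 308), and SNORA45 had 17 and 2, a ratio of 6.63 (1.58 to 59.2). SNORA67 with 30 and 5 counts followed SCARNA2 with a ratio of 4.68. In the other direction SNORA16A stood alone beyond 2-fold, with 8 counts in replicate 1 and 28 in replicate 2, a ratio of 0.223 (0.0878 to 0.502). SNORA71B (5 and 7 counts), SNORA3 (7 and 9), SNORA1 (6 and 7) and SNORA9 (13 and 15) followed, and the intervals of these 4 include 1. For many snoRNAs the counting error is thus wide enough to hold both equal levels and a 2-fold difference.

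**Figure D2:**
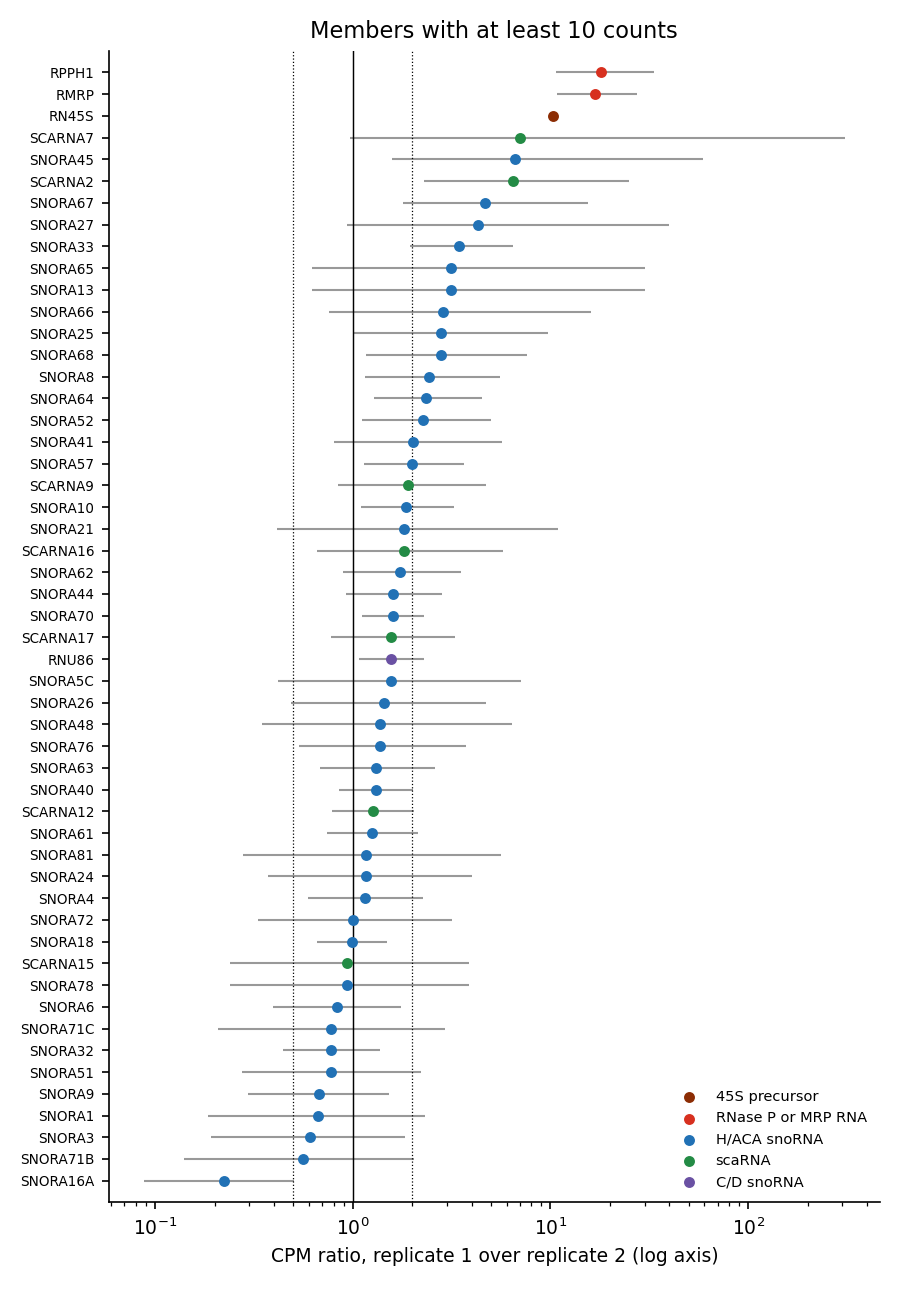
Ratio of CPM in replicate 1 over replicate 2 (log axis) of the 52 members with at least 10 counts, sorted, with points coloured by RNA class and bars for the 95% Clopper-Pearson counting interval. The solid line marks equal levels and the dotted lines a 2-fold difference, and RPPH1 at 18.1, RMRP at 16.7 and RN45S at 10.2 lie apart from the other members, of which SCARNA7 at 7.02 is the highest and SNORA16A at 0.223 the lowest.

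Short genes in general had higher values in replicate 1, which bears on how these ratios read. Across 11781 symbols with an exonic length and at least 10 counts, the log2 ratio fell with length (Spearman rho −0.52, across genes, which are not independent replicates). Among the 51 members with a RefSeq length and as many counts, the log2 ratio instead rose with length (Spearman rho 0.32). Other symbols of at most 500 nt had a median log2 ratio of 0.49 (n = 88), and those over 8000 nt had −0.33 (n = 3134). Among other classes of short RNA, many of which also come from introns, the median was 0.36 for 69 SNORD genes and 0.39 for 40 MIR genes, against 0.52 for the 41 H/ACA snoRNA genes with at least 10 counts. Over 2-fold higher in replicate 1 were 13 of these 41 H/ACA genes (31.7%), 27.5% of the SNORD genes, 30.0% of the MIR genes and 28.4% of other symbols of at most 500 nt. The SNORD and MIR genes were not taken out of the symbols of at most 500 nt, so these sets are not independent. Histone genes, taken by their HIST symbols, are mostly replication-dependent, with mRNAs that end in a stem-loop and not in a poly(A) tail. Their median was 0.72 over 37 genes, a comparison chosen after the data had been seen. Of the 37, 16 (43.2%) were over 2-fold higher in replicate 1 and 2 over 2-fold higher in replicate 2. RMRP at 4.06 and RPPH1 at 4.18 lay above the highest of the other symbols with a known exonic length of at most 500 nt, which was 3.10. Over all other symbols the highest was 4.64, at a symbol without an exonic length. The part of length in the ratios of single members was not tested.

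**Figure D3:**
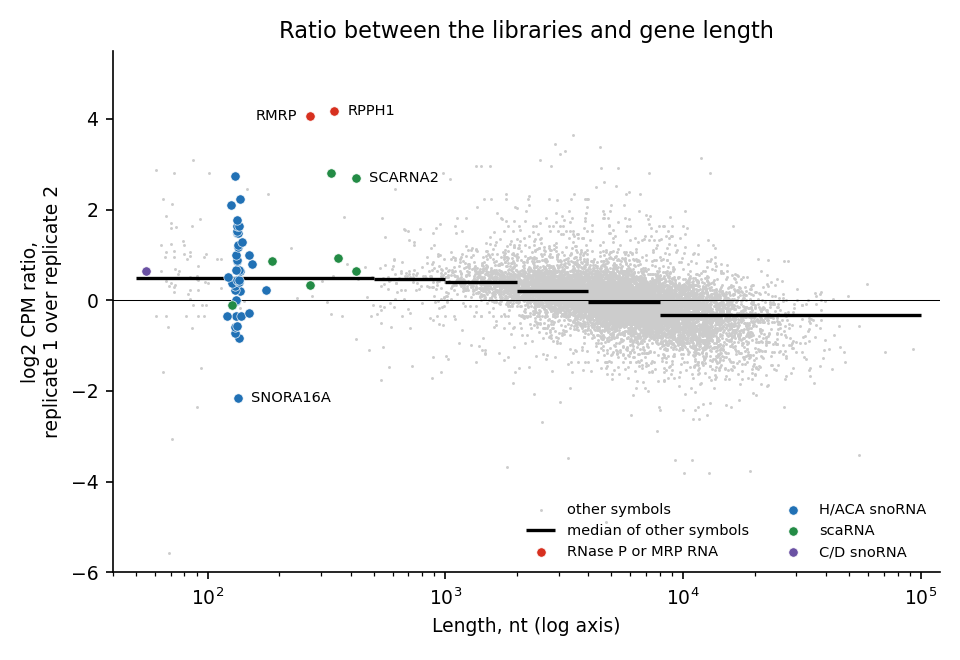
log2 ratio of CPM in replicate 1 over replicate 2 (vertical) against length in nt (log axis) for symbols with at least 10 counts, other symbols in grey by their exonic length and 51 members coloured by RNA class at their RefSeq length (RN45S has none here). Black lines are the medians of other symbols by length class, 0.49 up to 500 nt and −0.33 over 8000 nt, and RMRP and RPPH1 lie at 4.06 and 4.18.

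By position 100 of the 123 matched members lie in introns of genes on their strand, 14 overlap an exon of another gene in the basic GENCODE annotation, and 9 have no host on their strand. Members in introns had a summed level of 39.8 and 25.2 CPM in replicates 1 and 2. Of the 100, 35 had no counts in either library, and this was so for 5 of the 14 that overlap an exon. For 92 intronic members the host is itself in the tables. Where the host had at least 500 CPM, 11 of 14 members reached 10 counts over both libraries, against 14 of 48 for hosts from 50 to 500 CPM and 5 of 30 for lower hosts. Over 86 intronic members whose hosts had counts, the Spearman rho between member and host level was 0.37, as a description over genes that share libraries and in part share hosts.

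By the median, the ratio between the libraries was larger for intronic members than for their hosts, a description of the ratio the group was proposed on. For the 28 with at least 10 counts whose host also had counts in both libraries, the median log2 ratio was 0.88 for the members and 0.34 for the hosts, and 20 of 28 had a larger ratio than their host. Of the 19 hosts of such members with at least 10 counts themselves, none was over 2-fold different in either direction. A host of several members enters the host median once for each of them, as TAF1D does 6 times. Some members rest on few counts and reached the minimum of 10 mainly through replicate 1, such as SCARNA7 with 9 in replicate 1 and 1 in replicate 2. Nothing is therefore read from the difference between members and hosts. RPL10 was at 1272 and 827 CPM in replicates 1 and 2, a ratio of 1.54, close to that of SNORA70 inside it at 1.59. Over the 28 members, however, member and host log2 ratios had a Spearman rho of 0.23 and a Pearson r of only 0.07. Per kilobase, the host taken over the union of its exons, members were at 0.398% to 258% of their hosts, with a median of 5.12% (n = 26). The members are far shorter than their hosts, and the part of length in this comparison was not tested.

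TAF1D, which encodes a subunit of the RNA polymerase I initiation complex, holds 6 members in its introns, the largest number for a host in these data. SNORA18 had 57 counts in replicate 1 and 45 in replicate 2, SNORA40 had 62 and 37, SNORA32 had 28 in each, SNORA8 had 31 and 10, SNORA25 had 18 and 5, and SNORA1 had 6 and 7. Within this host the ratios thus ran between 0.669 for SNORA1 and 2.81 for SNORA25. The host was at 63.1 and 53.2 CPM in replicates 1 and 2. Per kilobase SNORA18 was at 258%, SNORA40 at 256% and SNORA32 at 157% of TAF1D, whereas SNORA10 and SNORA64 in introns of RPS2 were at 1.10% and 0.916% of that gene. The union of exons over all annotated transcripts was 7970 nt for TAF1D and 2388 nt for RPS2. A longer union lowers the host value per kilobase, so these percentages depend in part on the annotation.

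Other hosts with more than 1 member gave mixed pictures. RPS2 held SNORA10 with 50 counts in replicate 1 and 21 in replicate 2 and SNORA64 with 45 and 15, so that both were higher in replicate 1. In RPSA, which encodes a ribosomal protein, SNORA62 had 31 and 14 counts whereas SNORA6 had 17 and 16. In EIF4A2, a translation initiation helicase, SNORA63 had 27 and 16, SNORA4 had 25 and 17 and SNORA81 had 6 and 4. DKC1, the gene of the pseudouridine synthase that H/ACA RNAs guide, hosts SNORA36A and SNORA56, and each of them had 1 count in replicate 1 and 2 in replicate 2 although DKC1 had 155 ± 11.1 CPM (SD, n = 2). Host and member could also diverge the other way. SNORA48 lies in an intron of EIF4A1, a helicase gene that all cells use, and had 7 and 4 counts while EIF4A1 itself is listed at 0 in both libraries. SNORA27 in RPL21 had 11 and 2 counts and RPL21 had 1 and 0. RPL21 has many processed pseudogenes and EIF4A1 overlaps a readthrough gene, so their low values are uncertain.

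**Figure D4:**
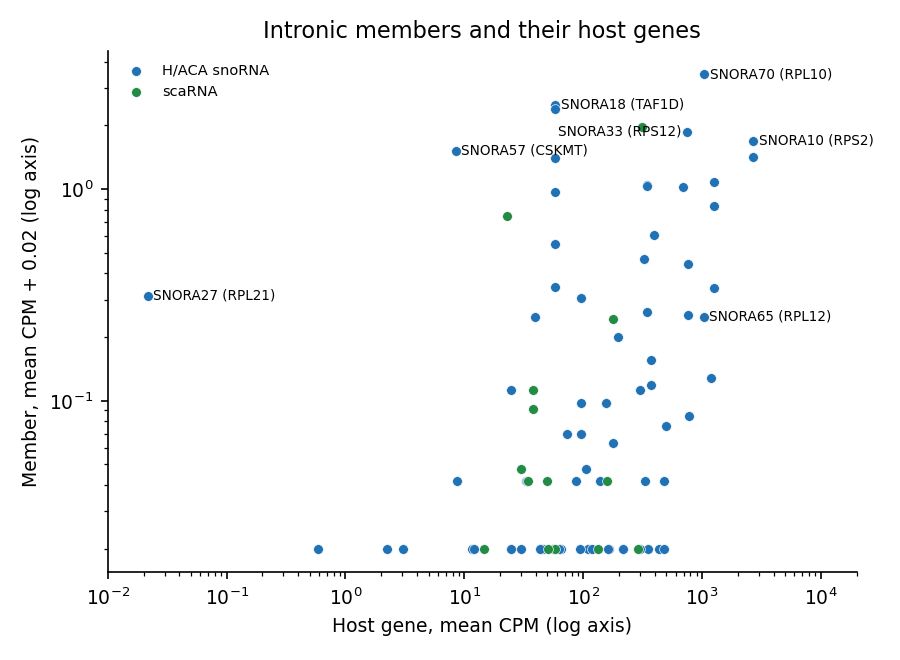
Mean CPM plus 0.02 of intronic members (vertical, log axis) against mean CPM of the host gene (horizontal, log axis), with H/ACA snoRNAs in blue, scaRNAs in green and hosts in parentheses. Members with no counts lie on the bottom row, SNORA70 in RPL10 is the highest, and SNORA27 lies far left because RPL21 had 1 count in replicate 1 and none in replicate 2, and SNORA48 is left out because its host EIF4A1 is listed at 0.

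Most genes of the proteins that bind, make and trim these RNAs were well detected. The 70 partner genes had a median of 41.0 CPM, and all but RPP21 were counted at 20 or more on average. None of the 69 with counts was over 2-fold higher in replicate 1, against 3.33% of all symbols, and 1 (1.45%) was over 2-fold higher in replicate 2, against 4.34%, so that these shares differ little from those of all symbols. This 1 was LSM11, a U7 snRNP protein used in histone mRNA processing, at 8.29 and 17.3 CPM in replicates 1 and 2. Of the H/ACA core proteins NHP2 was the highest with 228 ± 48.1 CPM and the assembly factor NAF1 the lowest with 12.6 ± 1.09 CPM (SD, n = 2). The Sm and U1 proteins ran between 452.5 ± 116 CPM for SNRPB and 12.8 ± 6.41 CPM for LSM11 (SD, n = 2). In the signal recognition particle SRP9 had 219 ± 32.8 CPM and SRP19 58.9 ± 4.38 CPM, and among proteins that regulate P-TEFb MEPCE, the highest, had 80.3 ± 5.64 CPM and HEXIM2, the lowest, 5.29 ± 2.21 CPM (SD, n = 2).

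For RNA polymerase III and the SNAPc complex, which transcribe RMRP and RPPH1, SNAPC1 was the highest with 131 ± 20.4 CPM and SNAPC5 the lowest with 6.06 ± 0.391 CPM (SD, n = 2), and the median log2 ratio of the 14 genes was −0.08. Among the factors of trimming, oligoadenylation and decay, the exosome helicase gene SKIV2L2 had 252 ± 56.2 CPM and the oligoadenylating polymerase gene PAPD5 18.3 ± 2.47 CPM (SD, n = 2). Their median log2 ratio over 8 genes was −0.31, and 7 of 8 were higher in replicate 2, against 6689 of all 13744 symbols with at least 10 counts. Other lists leaned the other way, with 11 of 12 Sm, Lsm and U1 genes and 8 of 9 RNase P and MRP genes higher in replicate 1. Of all 69 partner genes with counts, 42 were higher in replicate 1 and 27 in replicate 2. The La protein gene SSB had 191 ± 13.0 CPM and the Ro protein gene TROVE2 35.2 ± 5.38 CPM (SD, n = 2). The partner genes as a group had a median log2 ratio of 0.14, beside 4.06 for RMRP and 4.18 for RPPH1. What lies behind the difference of RMRP and RPPH1 between the libraries was not tested.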

How the data were processed

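Poly(A) RNA of 2 libraries of doxorubicin-resistant SUM159 cells was sequenced from directional libraries. RNA isolation is given as TRI reagent in the labels and as a column kit in the methods, which can differ in how much short RNA they keep, and this could affect the levels here. Raw counts per gene symbol were deposited by the authors, who used FastQC, HISAT2 on hg19 and HTSeq, with deepTools also listed. Tool versions, the gene annotation and the strand and overlap settings of counting are not given in the sources used here. If reads touching several genes or places were dropped, values of RN45S and of members inside other genes are too low.

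CPM were computed from library totals (1 count is 0.0434 CPM in replicate 1 and 0.0556 CPM in replicate 2). Ratios are CPM of replicate 1 over replicate 2 for symbols with at least 10 counts over both, with 95% Clopper-Pearson intervals and a limit of 2-fold. There being 1 condition, no test was made. The calculation was tested on simulated counts. Loci and sequences come from GENCODE on GRCh37 (hg19), matched by symbol, chromosome and, for symbols with several loci, a length within 5 nt of RefSeq. Member lengths come from RefSeq (147 of 148), and exonic lengths from GENCODE for 19311 symbols (82.6%).

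1 of the markers examined and 1 of the sequences read are not reported here. Members and lists were chosen with earlier results of these data known. Named by rule were all RNase P, RNase MRP, telomerase, Y and vault RNAs, RN45S, the most abundant of the other classes, the 5 largest ratios in each direction, members near the mean count of 20, and the highest and lowest gene of each partner list. Other members, the splits by host, position and length, the values per kilobase, the sums without RN45S, RMRP and RPPH1, and the window of the ACA search (widened to 9 bases) were chosen after values were seen. Alternatives were TMM (edgeR 4.0.16) and DESeq2 1.42.0 scaling in R 4.3.3, other filters and limits, and either library alone. Other steps ran in Python 3.11.15 (scipy 1.17.1, pandas 2.3.3, numpy 2.4.6, pysam 0.24.0, matplotlib 3.10.9).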

Additional observations from a re-analysis of the deposited data

How the results depend on the processing

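The summed level of the group was 2618 CPM as the mean of the libraries, 494 and 4743 CPM with either library left out, and 64.9 CPM without RN45S, so that its value rests on RN45S and on which library is taken. The number of members over 2-fold higher in replicate 1 was 18, and it became 5 of 15 with a minimum of 50 counts, 7 with a pseudocount of 0.5 CPM, 29 at 1.5-fold and 11 at 3-fold. The number higher in replicate 2 was 1, and it became 3 of 60 with no filter beyond more than 3 counts in a library, 0 with a minimum of 50 counts and 3 at 1.5-fold. The median log2 ratio of 0.66 became 0.41 with the pseudocount, which draws low values together by construction. Members with counts in both libraries numbered 72, and 46 with at least 4 reads in each, or 81 to 90 by 1 library alone. Members at a mean count of 20 numbered 20, and 32 at 10, 6 at 50, and 12 to 25 by 1 library alone, 12 being without replicate 1. TMM scaling, DESeq2 size factors, leaving out members that overlap an exon, and totals without RN45S, the last chosen after seeing the data, kept the 3 ratio results within 1.5 times. Leaving out the 2 members that share a sequence could not change them, since both had no counts. Scaling by TMM or DESeq2 size factors moved the level of each of the 27 named members by less than the SD between the libraries. Leaving out a library gives the level of the other alone, without replicate 1 and without replicate 2 being 1.17 and 19.5 CPM for RMRP, 0.778 and 14.1 CPM for RPPH1 and 454 and 4653 CPM for RN45S. No paired analysis was possible because there is only 1 group. Depth limits the ratios of single snoRNAs, most of which rest on fewer than 50 counts over both libraries.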
